A study of Mus musculus with 2 samples.

Results

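ST2- CD62L-low effector CD4 T cells of visceral adipose tissue (VAT) were selected from single-cell profiles of CD45+ cells by what each cell showed in its own counts. A cell was chosen by at least 1 unique molecular identifier (UMI, 1 counted molecule) of Cd3d, Cd3e and Cd3g together, at least 10 UMIs of the CD4 antibody, at least 15 of the TCR-beta antibody and under 10 of the CD62L antibody. It also had 0 UMIs of Il1rl1, which encodes the IL-33 receptor ST2, 0 of Foxp3, the regulatory T (Treg) cell factor, and 0 of Cdh5, an endothelial gene, and fewer than 5 of the macrophage genes C1qa, C1qb and C1qc together. The rule kept 219 of 12474 cells from mice on normal water (NW) and 220 of 12724 cells from mice given antibiotics (ABX), or 439 of 25198 cells in all. No ST2 antibody was counted, so ST2- means that no Il1rl1 UMI was seen, and the genes and antibodies of the rule are used below as a description only.

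Effector CD4 T cells have met antigen, have shed the lymph node homing receptor CD62L and carry the adhesion receptor CD44. They help other immune cells through CD40 ligand and through cytokines. Type 1 helper (Th1) cells, the class led by the factor T-bet (Tbx21), make interferon gamma, a main activator of adipose macrophages, while lean VAT also holds many ST2+ Treg cells that restrain inflammation. Naive CD4 T cells, in contrast, keep CD62L and CCR7 for passage through lymph nodes, and the factors TCF1 (Tcf7) and LEF1.

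The mice were wildtype C57BL/6 animals of 15 weeks under specific pathogen-free housing, given either normal drinking water or antibiotics, and 1 library was made per condition. CD45+ cells were captured on a BD Rhapsody micro-well cartridge after staining with oligonucleotide-tagged (AbSeq) antibodies. The number of mice behind each library is not given in the sources used here, so a difference between NW and ABX has no replicate check, and all intervals and floors cover counting error only. The labels name no other agent or allele.

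The libraries held 79855126 (NW) and 64801767 (ABX) gene UMIs, and 371 cell barcodes occurred in both. The ST2- effector cells had a median of 3111 UMIs and 1546 genes in NW, and of 3364.5 UMIs and 1597.5 genes in ABX, with ranges of 591 to 14262 and 597 to 19700 UMIs. Mitochondrial genes took a median of 5.58% and 6.94% of their UMIs. A doublet caller marked 1 of the NW cells and 3 of the ABX cells. RNA of macrophages was present in most of them. Only 59 NW and 73 ABX cells had no C1q UMI at all, and the 8 macrophage marker genes summed to 1353 and 1102 counts per 1e6 UMIs (CPM), against 25597 and 25673 CPM in macrophages (at least 20 C1q UMIs), with no marker at 0. Its part in the results below was not tested, and the counts without C1q-positive cells are given at the end.

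The limits of the rule cut through neighbouring cells. With 8 or 9 CD62L antibody UMIs, just inside, there were 23 NW cells and 8 ABX cells. Just outside, at 10 or 11, there were 14 NW cells and 6 ABX cells. At 10 or 11 CD4 antibody UMIs, 60% of 5 NW cells and 33.3% of 6 ABX cells had a Cd4 UMI, against 0% of 8 and 20% of 10 cells at 8 or 9. The TCR-beta limit lay inside the background, since macrophages had a median of 18 (NW) and 19 (ABX) TCR-beta antibody UMIs, and 16 NW and 9 ABX cells sat at 15 or 16.

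The number of ST2- effector cells was close between the libraries, and their weight among CD4 T cells was larger in ABX. They made up 1.76% of all NW cells (exact 95% interval 1.53 to 2.0) and 1.73% of all ABX cells (1.51 to 1.97), a ratio of ABX over NW of 0.985 (95% counting interval 0.818 to 1.19). Among CD4+ TCR-beta+ T cells they were 219 of 772 in NW, or 28.4% (25.2 to 31.7), and 220 of 570 in ABX, or 38.6% (34.6 to 42.7), a ratio of 1.36 (1.17 to 1.58). The denominator was itself smaller in ABX, since CD4+ TCR-beta+ T cells were 6.19% of NW and 4.48% of ABX cells. The NW and ABX libraries held 268 and 94 Foxp3+ cells, 216 and 111 ST2+ Foxp3- cells, and 69 and 145 CD62L-high ST2- Foxp3- cells. When only cells without any C1q UMI were kept, the ST2- effector share of CD4 T cells was 35.8% of 165 cells in NW and 37.1% of 197 cells in ABX, a ratio of 1.04 (0.788 to 1.36). Among cells without C1q RNA the intervals of the shares thus overlapped, and the share of all cells had a ratio of 1.21 (0.861 to 1.71).

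**Figure D1:**
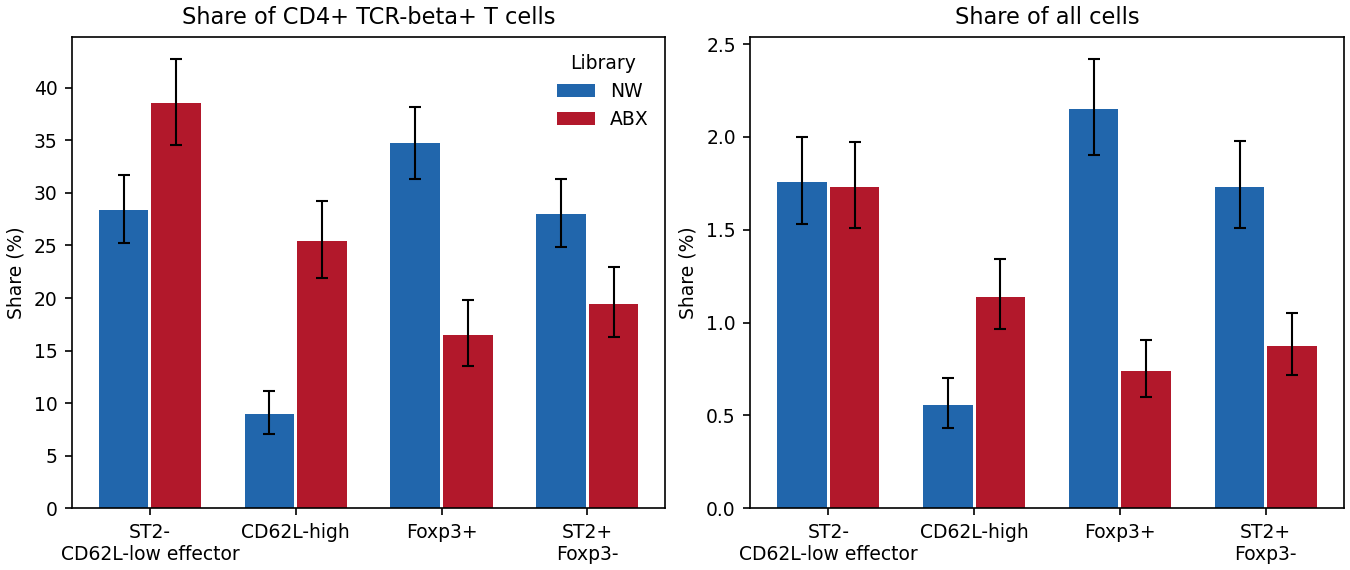
Share (%) of 4 CD4 T cell groups among CD4+ TCR-beta+ T cells (left) and among all cells (right) in the NW (blue) and ABX (red) libraries. Bars are shares with exact 95% intervals of counting error; the ST2- CD62L-low effector bars differ on the left (28.4% and 38.6%) and overlap on the right (1.76% and 1.73%).

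The surface antibodies read CD4 and CD44 well above their level on macrophages. The CD44 antibody had a median of 173 UMIs in NW and 177 in ABX cells, against 61 and 57 in macrophages, and the CD4 antibody had 59 and 63 against 2 and 1. CD62L-high cells had a median of 207 CD44 UMIs in NW and 70 in ABX, so CD44 set the effector cells apart from them in ABX and not in NW. CD25, the high-affinity IL-2 receptor chain, had a median of 8 in both libraries, and the activation marker CD69 had 8 and 6.5. Macrophages had 10 and 9 for CD25 and 7.5 and 7 for CD69, so both antibodies lay near that background. NK-1.1, a receptor of NK and NKT cells, had 22 and 17 UMIs, below the 34 and 37 counted on macrophages, which do not carry it. Of the rule's own proteins, Cd4 RNA was seen in 77.6% of NW and 79.1% of ABX cells and in 11.2% and 10.8% of macrophages.

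The label's marker genes were present in both libraries, each in a part of the cells. Cd40lg, the gene of CD40 ligand, had a UMI in 64 of 219 NW cells (29.2%, 23.3 to 35.7) and 62 of 220 ABX cells (28.2%, 22.3 to 34.6), against 0.0977% and 0.0521% of macrophages, whose median depth was 6188 and 4991 UMIs. Other Foxp3- CD4 T cells shared it, with 23.2% and 20.7% of CD62L-high and 22.2% and 27.0% of ST2+ Foxp3- cells. It was seen in 7.09% and 5.32% of Foxp3+ cells and in 5.22% and 3.10% of CD62L-low CD8 T cells. Tbx21 or Ifng had a UMI in 83 NW cells (37.9%, 31.4 to 44.7) and 67 ABX cells (30.5%, 24.4 to 37.0), against 1.43% and 1.61% of macrophages. The same share was 20.3% and 19.3% in CD62L-high cells, 7.84% and 12.8% in Foxp3+ cells, and 30.6% and 37.2% in CD62L-low CD8 T cells. Icos, a co-stimulatory receptor, was seen in 30.6% and 31.8% of the ST2- effector cells and in 3.95% and 3.44% of macrophages.

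Ccl5 and Cxcr3 were seen in more cells than type 2 cytokines, in a group from which the rule had removed cells with an Il1rl1 UMI. Ccl5, a chemokine that draws T cells and monocytes, was seen in 64.4% of NW and 59.5% of ABX cells, and Cxcr3, the receptor for interferon-induced chemokines, in 63.9% and 57.7%, against 12.9% and 11.7% of macrophages for Ccl5 and 6.62% and 4.97% for Cxcr3. Il4, Il5 or Il13, the type 2 cytokines, had a UMI in 5 NW cells and 1 ABX cell, shares of 2.28% and 0.455% that lay near the 1.97% and 1.28% of macrophages. The same share was 10.6% and 8.11% in ST2+ Foxp3- cells, which the rule left out, so the low share is no independent finding. Gata3, the type 2 factor that Treg and many other T cells also use, was seen in 40.2% and 37.3% of cells. It was seen in 78.4% and 56.4% of Foxp3+ cells and in 75.5% and 69.4% of ST2+ Foxp3- cells.

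Within the population the type 1 genes met in the same cells. Ccl5 was seen in 83.1% of the NW cells with Tbx21 or Ifng and in 52.9% of the other NW cells, and in 71.6% and 54.2% of the corresponding ABX cells. Cxcr3 was seen in 73.5% against 58.1% in NW and in 73.1% against 51.0% in ABX. Cells with Tbx21 or Ifng were also deeper, with medians of 3487 and 2906.5 UMIs in NW and 3567 and 3175 in ABX. Cells with RNA of other T cells were few: Cd8a or Cd8b1 was seen in 7 NW and 14 ABX cells, Trdc, the gamma-delta TCR gene, in 3 and 12, and Zbtb16, the NKT factor, in 5 and 7. Summed marker levels in NW and ABX were 112 and 96.4 CPM for NK cells, 185 and 170.1 for gamma-delta T cells and 2351 and 2365 for dendritic cells, and their part in the results was not tested.

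The contrast with CD62L-high ST2- Foxp3- CD4 T cells asked what sets the effector cells apart from cells with more CD62L in the same libraries. The CD62L-high cells were not all resting, since Ccl5 was seen in 44.9% (NW) and 35.2% (ABX) of them and Cxcr3 in 34.8% and 26.9%. The ST2- effector cells had higher Ifng, the chemokine receptor Cxcr6, the integrin chain Itgb1 and the transcription regulators Maf, Bhlhe40 and Rora, and lower Ccr7, Lef1, Satb1, Igfbp4, Dapl1 and Actn1. UMIs were summed per library and cell group, and 10 sums (5 T cell groups in 2 libraries) were fitted together with edgeR's quasi-likelihood test and Benjamini-Hochberg adjustment over 8491 genes. At an adjusted p under 0.05, 26 genes were higher (0.306% of those tested) and 54 lower (0.636%), with 394 and 453 at an unadjusted p under 0.05. The fit had a term for library, so the p-values measure how far differences between the 5 groups varied from NW to ABX. The 2 libraries had different treatments, so the p-values measure no spread between mice.

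Ifng, at chromosome 10, 118441046 to 118445892 (plus strand, GRCm38), had 124 CPM in NW and 58.5 in ABX effector cells, and 28.6 and 22.5 CPM in CD62L-high cells. The effector cells lay above the CD62L-high cells in both libraries, by 1.68 ± 0.36 (SE) on the log2 scale (adjusted p = 0.0274 in edgeR). Cxcr6 (chromosome 9, 123806475 to 123811760, plus strand), which holds T cells in tissue through CXCL16, had 381 and 293 CPM against 193 and 82.1, a log2 difference of 1.34 ± 0.21 (adjusted p = 0.00242). Itgb1 (chromosome 8, 128685654 to 128733200, plus strand), the beta chain of integrins that bind collagen and fibronectin, had 1434 and 1104 CPM against 712 and 399 (1.16 ± 0.20, adjusted p = 0.00471). These genes had the same order of groups in NW and in ABX, which is no separate check, since they were called on the sums of both libraries.

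The Th1 list had 14 genes tested, of which 3 were higher (Ifng, Cxcr6 and Bhlhe40, a regulator of T cell cytokines, with a log2 difference of 1.38), none was lower, and the median log2 difference was 0.77, against 0.01 over all genes tested. Cxcr6 was not particular to the effector cells, of which 52.5% (NW) and 49.5% (ABX) had a UMI. It was seen in 81.0% and 67.6% of ST2+ Foxp3-, 56.0% and 35.1% of Foxp3+ and 53.7% and 51.2% of CD62L-low CD8 T cells. Tbx21 had 95.3 and 66.1 CPM in effector cells and 46.5 and 54.7 in CD62L-high cells (log2 difference 0.62 ± 0.36, adjusted p = 0.61). Cxcr3 had 363 and 276 against 168 and 105 CPM (1.24 ± 0.32, adjusted p = 0.0879), and Ccl5 had 2366 and 1352 against 1561 and 1089.5 (0.43 ± 0.25, adjusted p = 0.627), so both stood higher in each library without passing the threshold. Of the 13 genes of T cell help and co-stimulation none passed in either direction, with a median of 0.59, and the same held for 9 TCR signalling genes (median 0.34) and 15 Treg genes (median 0.51).

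From the list of 21 trafficking receptors and integrins, Ccr2, the receptor for CCL2 (log2 difference 0.70 ± 0.16), Cxcr6 and Itgb1 were higher, Ccr7 was lower and 17 did not pass. Il2rb, the IL-2 and IL-15 receptor beta chain, was higher by 0.86 (SE 0.19) and Il6ra, the IL-6 receptor, was lower by 1.15 ± 0.18, out of 18 cytokine receptors, whose median was -0.07. Maf (535 and 475 against 200.5 and 235 CPM) was higher by 1.1, Rora by 0.98 and the large scaffold gene Ahnak by 0.88, 1 gene each of the Th2 (6 tested), Th17 (6 tested) and S100 and cytoskeleton (14 tested) lists. Of the largest differences outside the lists, Socs2, an inhibitor of cytokine signalling, was higher by 1.51, Asb2 by 1.61, Mdfic by 1.52, Osbpl3 by 1.78 and Tmx4 by 1.79. Mki67, a marker of dividing cells, was the 1 called of 13 proliferation genes, with 77.0 and 242 CPM against 39.4 and 16.1. Its UMIs lay in few effector cells, with 21 of 59 in 1 NW cell and 55 of 223 in 1 ABX cell. The immunoglobulin gene Iglc1 rested on 1 ABX cell that held 1055 of 1122 UMIs. Without predicted doublets Mki67 and Ccr2 were not called, though their log2 differences were 2.72 and 0.69. Without cells rich in Jchain Iglc1 was not called, at 0.33.

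The naive and quiescence list had 6 of 14 genes lower, none higher and a median of -1.06. Igfbp4 (chromosome 11, 99041244 to 99054392, plus strand), a gene of naive CD4 T cells, had 36.6 and 7.58 CPM in effector cells and 208 and 282 in CD62L-high cells (log2 difference -3.71 ± 0.38, adjusted p = 4.43e-05). Ccr7 (chromosome 11, 99144196 to 99155077, minus strand) had 43.1 and 29.3 against 189.7 and 163 CPM (-2.31 ± 0.47, adjusted p = 0.0205). Satb1, a chromatin organizer of T cells, had 116 and 104 against 383 and 397 CPM (-1.87 ± 0.27, adjusted p = 0.00175), Dapl1 was lower by 3.07, Actn1 by 2.39 and Lef1 by 1.06 on the log2 scale. Tcf7 had 762 and 703 CPM against 906 and 740 (-0.23 ± 0.27, adjusted p = 0.875). Lef1 and Ccr7 thus passed the threshold and Tcf7 did not.

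Lower genes outside that list included Klkb1, the plasma kallikrein gene, with 86.2 and 87.8 CPM in effector cells and 2395 and 383 in CD62L-high cells, Atp1b1, a sodium pump subunit (-3.29 ± 0.34), Aldh2 and Rflnb. Ms4a1 and Cd79a, which are B cell genes, were lower by 2.83 and 1.66. They belong to the 6 B cell marker genes, whose summed levels were 1315 and 25383 CPM in effector cells and 2291 and 18935 in CD62L-high cells, and their part in the contrast was not tested. CD62L-high cells of NW also carried more of all 10 antibodies, with a median of 585 antibody UMIs against 353 in the effector cells, and CD62L was a median of 4.33% of their antibody UMIs in NW and 10.7% in ABX. When the limit was set at 3% of each cell's antibody UMIs instead, a choice made after seeing the data, 153 genes were called and Cxcr3 passed (1.85, adjusted p = 0.00685 in edgeR). Ifng and Tmx4 were not called there at 1.43 and 1.42 on the log2 scale, nor were Aldh2 and Cd79a, at -0.42 and -0.12.

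Across the CD62L scale, given here as a description, the shares of cells with naive and effector genes shifted over several bins rather than at the limit alone. The share of ST2- Foxp3- CD4 T cells with a Satb1 UMI was 10.2% at 0 to 1 CD62L antibody UMIs and 68.2% at 50 or more in NW, and 30.8% and 75.7% in ABX. Itgb1 ran the other way, from 84.7% to 59.1% in NW and from 84.6% to 41.9% in ABX. In the bin just above the limit, 10 to 14 antibody UMIs, Cxcr3 was seen in 57.1% of 21 NW cells, near the 59.4% to 71.9% of the bins below, and in 29.4% of 17 ABX cells, near the 20.3% to 35.2% of the bins above. In NW some cells just outside the limit thus carried effector genes.

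**Figure D2:**
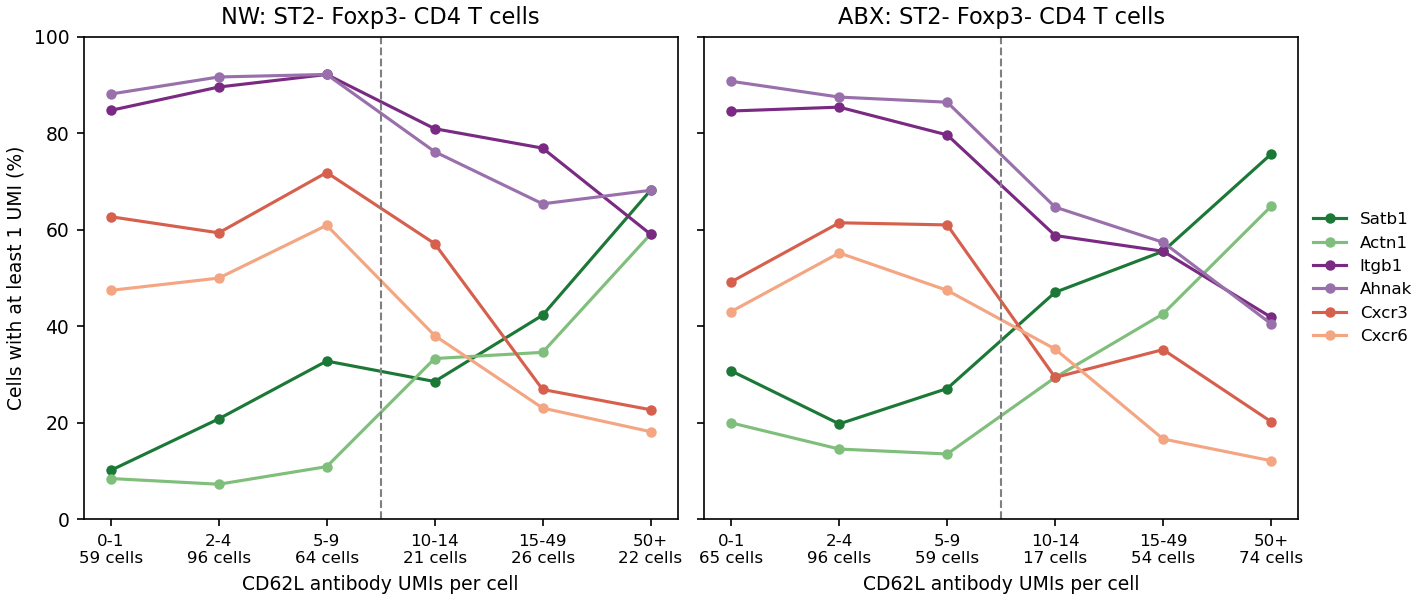
Share (%) of ST2- Foxp3- CD4 T cells with at least 1 UMI of 6 genes (y axis) in 6 bins of CD62L antibody UMIs per cell (x axis, with cell numbers), for NW (left) and ABX (right). The dashed line is the limit of 10; Satb1 and Actn1 have larger shares in the bins to its right, except Satb1 in the NW bin next to the line, and Itgb1, Ahnak, Cxcr3 and Cxcr6 in the bins to its left.

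Against Foxp3+ CD4 T cells the ST2- effector cells had higher levels of most type 1 genes tested, of Cd40lg, the CD40 ligand gene, and of Tcf7 and Lef1, and lower levels of most Treg genes. In the same edgeR fit 180 genes were higher (2.12% of 8491) and 238 lower (2.8%). The Th1 list had 10 of 14 genes higher and none lower, with a median log2 difference of 1.72 against -0.01 over all genes. Ccl5 (chromosome 11, 83525778 to 83530518, minus strand) had 2366 and 1352 CPM in effector and 382 and 746 in Foxp3+ cells (1.76 ± 0.27, adjusted p = 0.000317). Tbx21 had 95.3 and 66.1 against 10.5 and 33.4 CPM (2.14 ± 0.39), Ifng was higher by 2.85, Cxcr3 by 1.68, Fasl, a death ligand, by 3.52 and Il12rb2, an IL-12 receptor chain, by 3.43. In ABX the gap was narrower for Tbx21, Ccl5 and Cxcr3, whose levels in Foxp3+ cells were higher in ABX than in NW, a difference without a test.

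Among genes of T cell help 5 of 13 were higher and 4 lower. Cd40lg (chromosome X, 57212143 to 57224042, plus strand) had 118 and 82.3 CPM in effector and 21.8 and 14.3 in Foxp3+ cells (2.39 ± 0.28, adjusted p = 2.26e-05), and Tnfsf8, the CD30 ligand, was higher by 2.16. Icos was lower by 0.96 (159 and 161 against 436 and 200.2 CPM), and Tnfrsf4 (OX40) and Tnfrsf18 (GITR) were lower by 2.93 and 2.06. Il2, the T cell growth factor, had 43.1 and 21.7 CPM against 6.11 and 0 (7 UMIs and 0 UMIs). The naive list had 4 of 14 genes higher, with Tcf7 at 762 and 703 against 53.2 and 193 CPM (2.79 ± 0.32), Lef1 higher by 1.19 and Satb1 by 1.24, and Il7r, the IL-7 receptor, lower by 0.49. Tcf7 thus stood above its level in Foxp3+ cells in both libraries.

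Treg genes were lower in 12 of 15 cases and higher in none (median -3.03). The groups were chosen on Foxp3, so this count is no independent evidence of its direction. Il2ra had 54.8 and 31.4 CPM in effector cells against 1266 and 550.5 in Foxp3+ cells (-4.37 ± 0.23), Ctla4 32.6 and 39.0 against 603 and 259.7 (-3.51 ± 0.28), and Ikzf2, the Helios gene, 71.8 and 174 against 1026 and 953 (-3.03 ± 0.25). Klrg1, a receptor of terminal effector and tissue Treg cells, was lower by 5.03. Il10, an anti-inflammatory cytokine, had 0 UMIs in NW effector cells and 1 UMI in ABX, against 131 and 11, and Pcsk1, a prohormone convertase, had 0 in both against 103 and 7. Pparg, the adipose Treg factor that the study turns on, had 5 and 7 UMIs in effector cells (6.53 and 7.58 CPM) against 72 and 16 in Foxp3+ cells (62.8 and 38.1 CPM, -2.83 ± 0.42, adjusted p = 0.000251). Gata3 was lower by 1.86.

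Of 19 immediate early and heat shock genes 9 were lower and none higher, and of 14 S100 and cytoskeleton genes 6 were lower, S100a4 among them (252 and 186 against 859 and 284 CPM, -1.31 ± 0.22). Cytotoxic granule genes were higher in 5 of 9 cases and lower in 1, Gzmb. Among them Gzma, a granzyme gene, had 43 UMIs in 4 NW effector cells and 41 in 1 ABX cell, against 1 and 7 UMIs in Foxp3+ cells. Among the largest differences outside the lists, Themis, a TCR signalling adaptor of conventional T cells, was higher by 2.95, St3gal6 by 2.98 and Cpne7 by 3.35, and Frmd5, Npnt and Neb were lower. Tcrg-C2, a constant segment of the TCR gamma chain, had 58 and 54 UMIs in effector cells and 6 and 0 in Foxp3+ cells.

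CD62L-low CD8 T cells, gated by the CD8b antibody and with the same other limits, had type 1 genes at levels of which 13 of 14 did not pass the test, and differed in some helper and cytotoxic genes. The CD8b limit lay inside the background, since macrophages had medians of 12 (NW) and 11 (ABX) CD8b antibody UMIs and upper quartiles of 23 and 21. A Cd8a or Cd8b1 UMI was seen in 41.0% of NW and 52.7% of ABX cells of this group. The same share was 0.547% and 0.807% in macrophages. Trdc was seen in 18.7% and 13.2% of the group, and how many of its cells were CD8 T cells was not tested. Against this group 64 genes were higher in the ST2- effector CD4 T cells (0.754% of 8491) and 163 lower (1.92%). Of the 14 Th1 genes none was higher and 1 was lower, with a median log2 difference of -0.09. Ifng had 124 and 58.5 CPM against 71.1 and 59.6, and Cxcr3 363 and 276 against 252 and 202. Ccl5 went the other way, with 2366 and 1352 against 3406 and 3600 CPM (log2 difference -0.93 ± 0.25, adjusted p = 0.0573), and it passed as lower in 4 of 9 alternatives. Helper genes were higher in 5 of 13 cases, with Cd40lg at 118 and 82.3 against 16.9 and 9.60 CPM (2.86 ± 0.32, adjusted p = 4.98e-05), the SLAM family receptor Slamf6 higher by 1.94, Cd28 by 1.16 and Tnfsf8 by 1.30. TCR signalling genes were higher in 6 of 9, Cd5 (1.75 ± 0.21) and Cd6 (1.48 ± 0.27) furthest, and 5 of 14 naive genes were higher, with Tcf7 at 762 and 703 against 332 and 265 CPM.

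Of 9 cytotoxic granule genes 3 were lower than in the CD8 T cells and 6 did not pass, and of 12 effector cytokine and chemokine genes 2 were lower and 10 did not pass. Prf1, the perforin gene, had 6.53 and 5.42 CPM against 28.8 and 36.5 (-2.44 ± 0.64, adjusted p = 0.0465), Xcl1, a chemokine for cross-presenting dendritic cells, 31.3 and 20.6 against 141 and 138, and Ccl4 37.9 and 19.5 against 129 and 125. Trdc (23.5 and 33.6 against 378 and 142 CPM), Blk and Cd163l1 were lower by 3.08, 4.08 and 4.07 on the log2 scale. These are genes of IL-17-type gamma-delta T cells, and the gamma-delta list was lower in 4 of 5 genes tested. Without cells that had a Trdc UMI, an alternative added after seeing the data, 280 genes were called. Izumo1r, the folate receptor 4 gene of CD4 T cells, had 61.4 and 115 CPM against 16.9 and 3.84 (2.95 ± 0.45), and Dcn and Gsn, which fibroblasts express, were lower, Dcn with 125 of its CD8 T cell UMIs in ABX and 1 in NW.

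**Figure D3:**
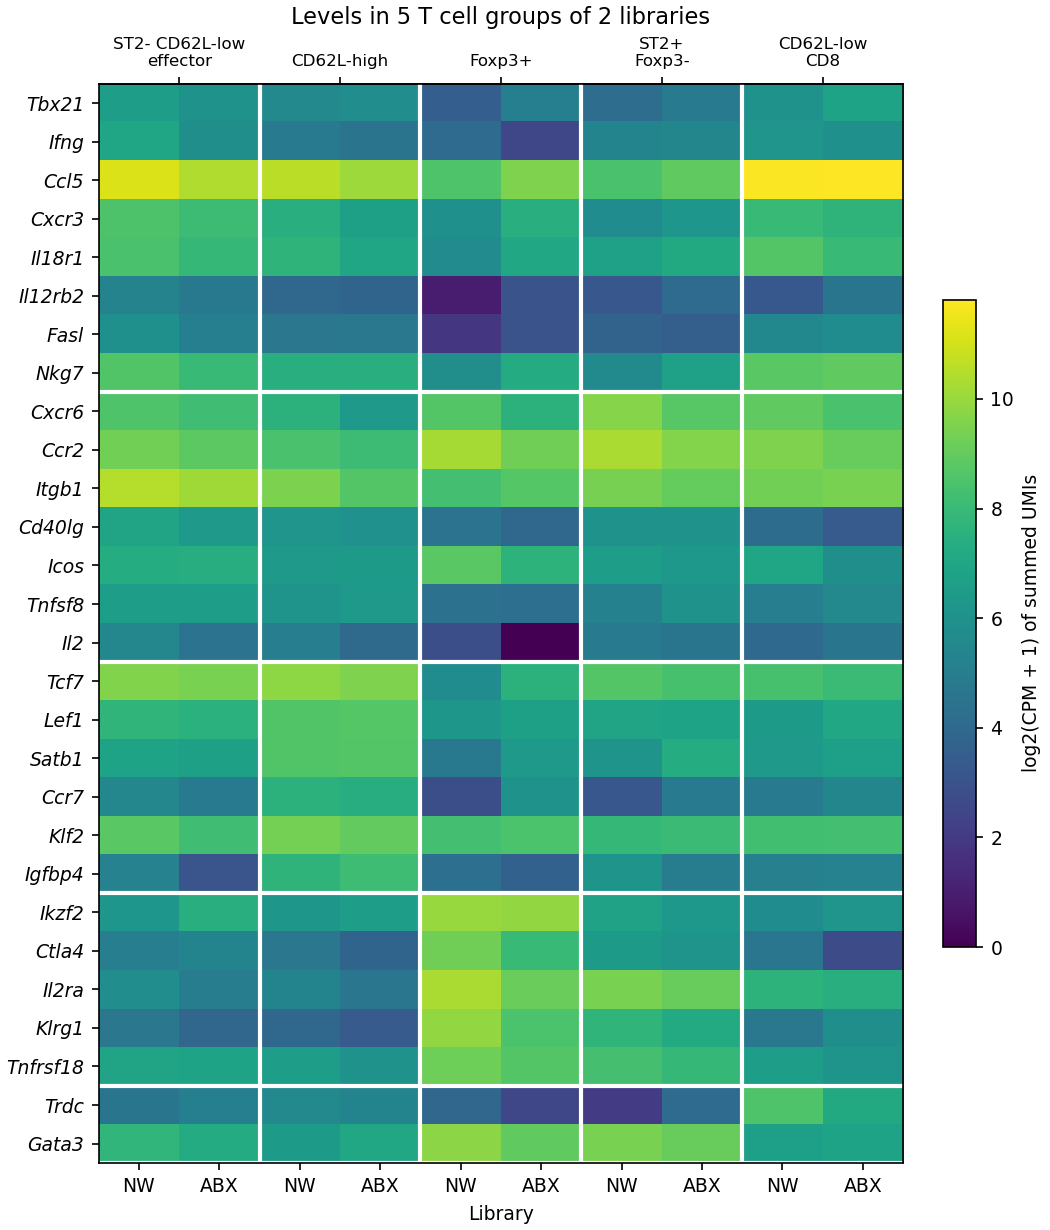
Levels of type 1, homing and help, naive, Treg and other T cell genes (rows), as log2(CPM + 1) of summed UMIs (colour scale), in 5 T cell groups (top) of the NW and ABX libraries (bottom). The ST2- CD62L-low effector columns are brighter than the Foxp3+ columns for Tbx21, Ifng, Ccl5, Cd40lg and Tcf7, darker for Ikzf2, Ctla4, Il2ra and Klrg1, and brighter than the CD8 columns for Cd40lg.

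The comparison of ABX with NW within the ST2- effector cells asked how they differed after antibiotics. Ifng, Ccl5, Cd69, Dusp2 and Dusp5 stood lower in ABX, and Mki67, Ikzf2, Cd27 and Izumo1r, a gene of the follicular helper (Tfh) list, stood higher. With 1 library per condition no test was possible, so each gene is given as the ratio of its CPM with an exact interval of counting error. Among 2303 genes with at least 100 UMIs in total and a level no lower than in all cells, 55 were at least 1.5-fold higher in ABX (2.39%) and 88 at least 1.5-fold lower (3.82%), around a median ratio of 0.951.

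The Th1 list had 11 genes in this comparison, none past 1.5-fold higher and 2 past 1.5-fold lower, with a median ratio of 0.70. Ifng had 95 UMIs in 49 NW cells and 54 UMIs in 29 ABX cells, or 124 and 58.5 CPM, a ratio of 0.472 (0.331 to 0.666). Ccl5 had 1812 UMIs in 141 NW cells and 1248 in 131 ABX cells, a ratio of 0.572 (0.531 to 0.615). Ifng was thus seen in fewer ABX cells and Ccl5 at a lower level in a similar number. At an equal depth of 1000 UMIs per cell, Ifng was seen in 9.53% of NW and 5.04% of ABX cells and Ccl5 in 55.2% and 44.3%. Tbx21 had 95.3 and 66.1 CPM (0.693, 0.485 to 0.988), Nkg7, a granule gene, 384 and 258 (0.672), Il18r1, the IL-18 receptor, 341 and 233 (0.684), and Cxcr3 363 and 276 (0.761).

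Cd69 RNA, an early sign of TCR activation, had 159 CPM in NW and 76.9 in ABX (0.483, 0.355 to 0.652). The CD69 antibody had medians of 8 and 6.5, near the 7.5 and 7 of macrophages, so it says little about the protein. Dusp2 and Dusp5, phosphatases induced by TCR signals, had ratios of 0.576 and 0.448, and the heat shock gene Dnajb1 0.653, so that 2 of the 3 immediate early and heat shock genes compared were past 1.5-fold lower. The list has 19 genes, and the others did not meet the limits for this comparison. All 19 summed to 12609.5 CPM in NW and 10494.6 in ABX, so no broad fall of the list is shown. Genes outside the lists that stood lower included Tagap, a GTPase-activating protein of T cells, with 75 and 30 UMIs (0.332, 0.210 to 0.513), Cd7, a T and NK cell surface protein, with 80 and 38 (0.394, 0.261 to 0.587), and Ptpn4, Slc25a24, Zbtb44 and Podnl1, with ratios from 0.427 to 0.457. Nr4a1, Rgs1 and Rgs2 had ratios of 0.364, 0.510 and 0.476 but lay below the level of all cells. The residency list had 2 of 5 genes lower, Cd69 and the integrin gene Itga1 (0.632), and of the naive list Klf2, a gene of recirculating cells, was lower at 0.650. Gpr183, which guides T cells in lymphoid tissue, had 0.595.

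Among the helper genes Cd40lg had 118 and 82.3 CPM (0.701, 0.509 to 0.962), Icos 159 and 161 (1.01, 0.792 to 1.30) and Tnfsf8 95.3 and 97.5 (1.02, 0.743 to 1.41). Of 10 helper genes, 12 TCR signalling genes, 8 glycolysis genes and 8 interferon-stimulated genes compared, none passed 1.5-fold, with medians of 0.90, 0.90, 1.01 and 0.91. Receptors for short-chain fatty acids were hardly seen, with 0 UMIs of Ffar3 and Hcar2 in either library and 7 and 13 UMIs of Ffar2 in 3 NW cells and 1 ABX cell. Pparg had 5 UMIs in 4 NW cells and 7 in 5 ABX cells, too few to compare. The adhesion and residency genes Itgb1 and Cxcr6 stood at 0.770 and 0.767, and Tcf7 and Lef1 at 0.922 and 0.897.

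The highest ratios of all belonged to plasma cell genes in a few ABX cells. Jchain, which links antibody units, had 30 UMIs in NW and 2951 in ABX, of which 2896 lay in 6 ABX cells with at least 10 each, and those 6 cells also held 13670 of the 14788 Igkc UMIs and 8060 of the 8475 Ighm UMIs. No NW cell had 10 Jchain UMIs (0 of 219, which at 3 counts allows a share of up to 1.37%). The 8 genes that the naming rule put first were Iglc3 (ratio 176), Jchain (81.6), Mzb1 (72.5), Iglc1 (71.6) and the variable segments Iglv1, Igkv8-27, Igkv5-48 and Igkv15-103, which had 0 NW UMIs and were at least 163-, 54.2-, 60.6- and 60.0-fold higher in ABX against 3 counts. Iglc3 had 3365 of its 3395 UMIs in 1 cell. B cell marker sums in the effector cells were thus 1315 CPM in NW and 25383 in ABX. They also stood higher in ABX in CD62L-high (2291 and 18935), ST2+ Foxp3- (1298 and 20274), CD62L-low CD8 (1822 and 17761) and Foxp3+ cells (9545 and 12415). In ABX, cells with 10 or more Jchain UMIs were 2.73% of effector and 2.70% of ST2+ Foxp3- cells. They were 1.38% of CD62L-high, 1.55% of CD62L-low CD8 and 1.06% of Foxp3+ cells. The rise was thus not particular to the effector cells. Reads of immunoglobulin genes can be shared between near-identical copies, so the split between them is uncertain. Without these 6 cells, an alternative added after seeing the data, 48 genes were higher and 61 lower of 2215, Ccl5 had a ratio of 0.628 and Iglc3 one of 0.690.

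The genes that stood highest without those cells were named after their values had been seen. Ikzf2 (chromosome 1, 69531214 to 69687245, minus strand) had 55 UMIs in 27 NW cells and 161 in 54 ABX cells, or 71.8 and 174 CPM (2.43, 1.78 to 3.36; 2.58 without the 6 cells). Cd27, a co-stimulatory receptor, had 41 and 100 UMIs (2.02, 1.39 to 2.99), Nt5e, the CD73 gene, 33 and 84 (2.11, 1.40 to 3.26), and Tbc1d4, a GTPase-activating protein of glucose transport, 88 and 198 (1.87, 1.45 to 2.43). Each of these was spread over many cells, with a top cell of at most 23 UMIs. At 1000 UMIs per cell Ikzf2 was seen in 6.01% of NW and 12.2% of ABX cells and Cd27 in 6.24% and 11.5%.

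Mki67 had 59 UMIs in 14 NW cells and 223 in 25 ABX cells (3.14, 2.34 to 4.25), and of 5 proliferation genes compared 3 were past 1.5-fold higher, with Top2a at 1.88 and Stmn1 at 1.70. A UMI of at least 2 of 7 mitotic genes was seen in 6 NW cells (2.74%, 1.01 to 5.87) and 13 ABX cells (5.91%, 3.18 to 9.89), and these intervals overlapped. The same share was 2.90% and 2.76% in CD62L-high cells, 5.09% and 9.01% in ST2+ Foxp3- cells and 4.48% and 6.38% in Foxp3+ cells. It was 1.49% and 0% in CD62L-low CD8 T cells and 2.64% and 1.56% in macrophages. A larger share in ABX was thus not particular to the effector cells. Without these cycling cells Mki67 had a ratio of 1.21, Top2a 0.943 and Stmn1 0.261, while Ikzf2 had 3.07 and Cd27 1.99.

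**Figure D4:**
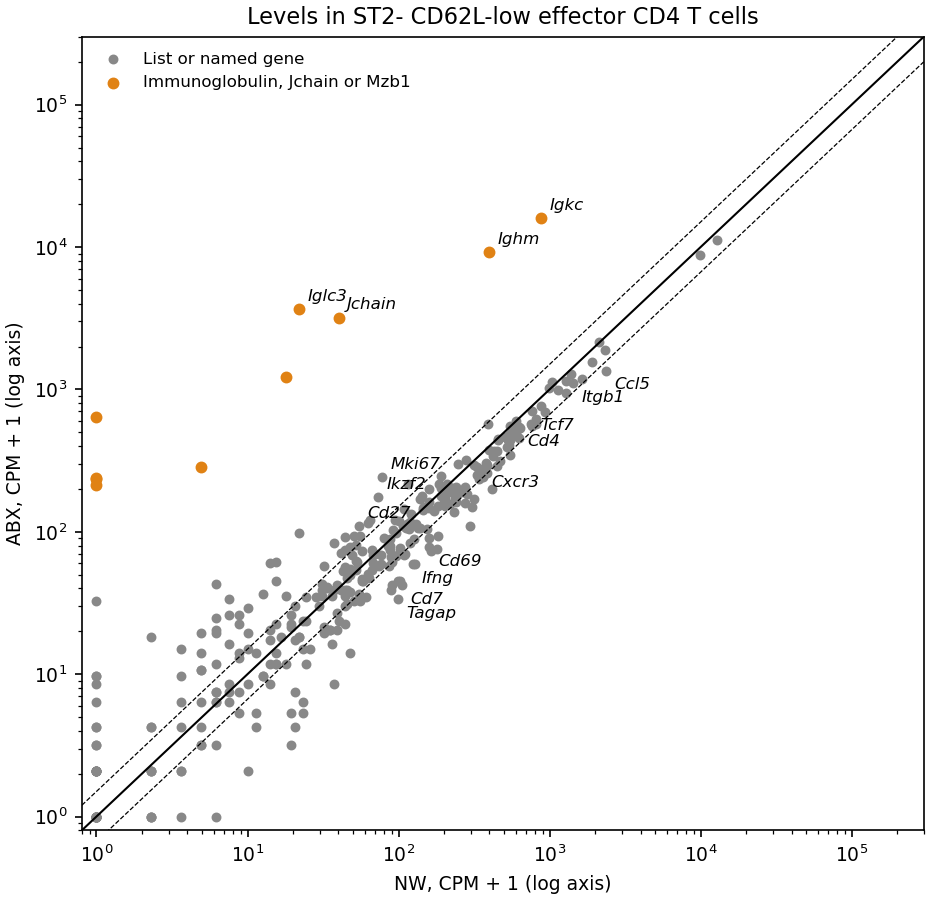
Level of each listed or named gene in the ST2- CD62L-low effector CD4 T cells of NW (x axis) and ABX (y axis), as CPM + 1 on log axes, with the line of equal levels (solid) and 1.5-fold limits (dashed). The immunoglobulin genes, Jchain and Mzb1 (orange) lie far above the line, Mki67, Ikzf2 and Cd27 just above it, and Ifng, Ccl5, Cd69, Cd7 and Tagap below it.

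**Figure D5:**
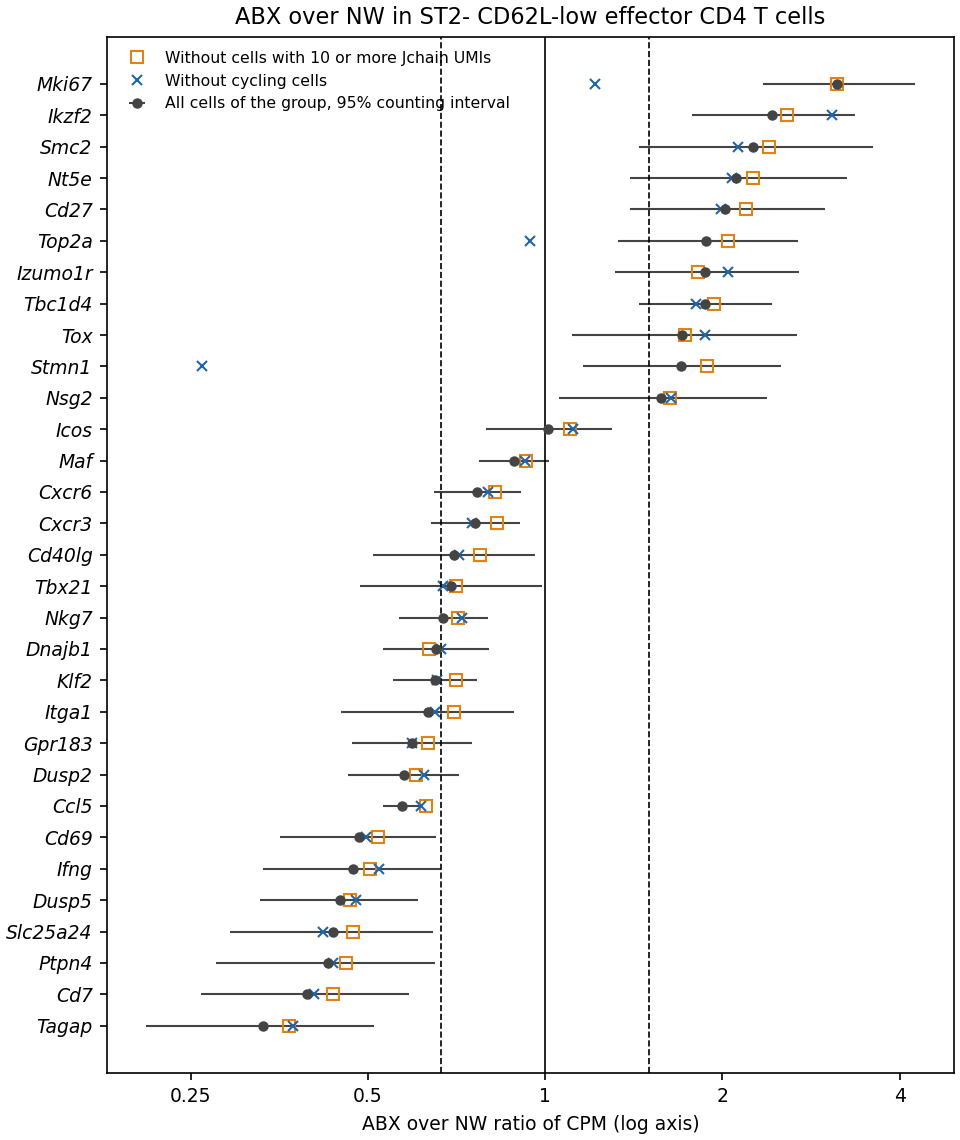
Ratio of ABX over NW CPM (x axis, log scale) for named genes in the ST2- CD62L-low effector CD4 T cells: circles with exact 95% counting intervals for all cells, orange squares without the 6 cells with 10 or more Jchain UMIs, and blue crosses without cycling cells; the dashed lines are 1.5-fold. Mki67, Top2a and Stmn1 lose their higher level without cycling cells, and Ifng, Ccl5 and Cd69 keep ratios below 1 in all 3 versions.

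Cells with a UMI of Treg or Tfh genes, though without Foxp3, made up a larger share in ABX, with overlapping intervals for the Tfh genes. Ikzf2 or Ikzf4, factors of Treg cells, had a UMI in 28 NW cells (12.8%, 8.67 to 17.9) and 56 ABX cells (25.5%, 19.8 to 31.7), against 5.49% and 4.58% of macrophages and 86.9% and 84.0% of Foxp3+ cells. This share was 11.6% and 16.6% in CD62L-high, 18.1% and 18.0% in ST2+ Foxp3- and 15.7% and 12.4% in CD62L-low CD8 T cells. The NW effector share lay within the range of these groups. Cxcr5, Il21, Sostdc1 or Tox2, genes of Tfh cells, had a UMI in 10 NW effector cells (4.57%, 2.21 to 8.24) and 24 ABX effector cells (10.9%, 7.12 to 15.8). In macrophages it was 6.72% and 5.0%, so the NW share was no higher than this background. The set was most frequent in Foxp3+ cells, at 38.8% and 22.3%. It was seen in 5.80% and 7.59% of CD62L-high, 4.63% and 4.50% of ST2+ Foxp3- and 2.99% and 4.65% of CD62L-low CD8 T cells. Effector cells with these Tfh genes were deeper than the other effector cells, with medians of 3516.5 and 3074 UMIs in NW and 4470.5 and 3273 in ABX. Both sets met in 1 of the 28 NW cells and in 16 of the 56 ABX cells. Sostdc1, a secreted inhibitor made by Tfh and follicular regulatory cells, had 0 UMIs in NW and 29 in 8 ABX cells, at least 8.02-fold higher in ABX against 3 counts, though 12 of them lay in 1 cell. Of 3 Tfh list genes compared 2 were past 1.5-fold higher, Izumo1r (47 and 106 UMIs, 1.87, 1.32 to 2.70) and Tox (33 and 68 UMIs, 1.71, 1.11 to 2.68). Ccl5 was seen in fewer of the cells with Ikzf2 or Ikzf4 than of the others, 46.4% against 67.0% in NW and 44.6% against 64.6% in ABX.

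The same genes were read in the other T cell groups of both libraries, where no difference of ratios was tested. Ikzf2 had a ratio of 1.24 (0.742 to 2.15) in CD62L-high and 0.929 (0.827 to 1.04) in Foxp3+ cells. In CD62L-high cells Cd27 had 2.32 (1.41 to 4.02) and Izumo1r 2.25 (1.13 to 4.97), so neither was higher in the effector cells alone. Ifng had 0.787 (0.308 to 2.16) in CD62L-high and 0.837 (0.509 to 1.36) in CD62L-low CD8 T cells, and both intervals overlapped that of the effector cells. Ccl5 had 0.698 in CD62L-high, 1.06 in CD8 and 1.95 in Foxp3+ cells. Tagap had 0.475 in CD62L-high and 1.03 in CD8 T cells. Rgs2 and Nr4a1 were lower in ABX in all 5 T cell groups, with ratios from 0.349 to 0.527 and from 0.273 to 0.648.

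Keeping only cells without a C1q UMI lowered the number of genes called in every contrast, with 3893 genes tested and far fewer cells. Against CD62L-high cells 30 genes were called, and 13 of the 30 genes named as called were lost. Of these, Ifng, Maf, Rora and Bhlhe40 had log2 differences of 3.07, 1.15, 1.19 and 1.44, no smaller than with all cells, and Ccr7 had -1.1. Against Foxp3+ cells 148 were called, with 9 losses, among them Cd40lg at 2.91 and Ifng at 1.76. Against CD8 T cells 3 were called, and 20 of the 27 genes named as called were lost. Of these, Slamf6, Cd28, Cd5 and Tcf7 had smaller log2 differences than with all cells, at 0.95, 0.66, 1.45 and 0.84, and Cd40lg had 2.83. Itgb1, Cxcr6, Igfbp4, Satb1 and Lef1 against CD62L-high cells were still called. With DESeq2, 7 named genes were lost against Foxp3+ cells, Icos, Il10, Gzma, Gzmk and, with log2 differences of 1.55, 1.66 and 1.75, Cxcr3, Il18r1 and Nkg7, and 10 were lost against CD8 T cells. Of the 80, 418 and 227 genes called against CD62L-high, Foxp3+ and CD8 T cells, 80, 418 and 227 had the same direction in the ABX library alone, and 79, 416 and 226 in the NW library alone. The calls were made on both libraries together, so this agreement is no separate check.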

How the data were processed

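Visceral adipose CD45+ cells of NW and ABX mice were profiled with the BD Rhapsody whole-transcriptome assay and AbSeq antibodies, 1 library per condition. The authors deposited whole-number UMI counts per cell, as molecules per cell from the BD pipeline, aligned to GRCm38 (mm10). The submitters' processing notes name R 3.6.0 and Seurat 3.0.1. The files hold 10 antibodies, 2 more than the study's methods list, and none for ST2.

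Barcodes with at least 500 gene UMIs, 200 genes and at most 25% mitochondrial UMIs were kept (12474 and 12724). The libraries held 79855126 and 64801767 gene UMIs, and shares and ratios carry exact intervals that cover counting error only. Scrublet in scanpy 1.11.5 scored doublets, which were kept. Its automatic threshold marked 344 NW cells and 1 ABX cell, so the NW threshold of 0.2231 was used for both. The comparison groups had the same limits on C1q and Cdh5: CD62L-high cells had at least 10 CD62L UMIs, Foxp3+ cells at least 1 Foxp3 UMI, and CD8 T cells at least 15 CD8b and under 10 CD4 antibody UMIs. Cd4, Cd8a, Cd8b1, TCR constant genes and the rule's own genes were described without a test. Some items are not reported here.

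UMIs were summed per library and group, and the 10 sums were fitted with edgeR 4.0.16 in R 4.3.3 (quasi-likelihood, TMM, cell group plus library, genes passing filterByExpr, Benjamini-Hochberg adjustment at 0.05), a model checked on simulated data. ABX and NW were compared by CPM ratios, for genes whose NW and ABX sums came to 100 UMIs or more and whose level was no lower than in all cells, with a limit of 1.5-fold. Shares at equal depth used cells thinned to 1000 UMIs (214 NW and 218 ABX cells). Genes were named if they stood in a gene list, among the 10 largest differences in each direction against CD62L-high cells or the 5 largest against the other groups (at least 100 UMIs, same direction in both libraries), or among the 8 highest and 8 lowest ABX to NW ratios. The members, lists and tests were chosen with earlier results of these data known. Alternatives were DESeq2 1.42.0, other size factors, filters, limits and sample sets, and cells without C1q UMIs. Those on Jchain, Trdc, Cd8a, Cd8b1, cycling or top cells and on CD62L as 3% of antibody UMIs were chosen after seeing the data. Gene positions come from the GENCODE M21 annotation of GRCm38.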

Additional observations from a re-analysis of the deposited data

Results flagged for a closer look

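Some genes differed in the direction of their ABX to NW ratio between the ST2- effector cells and another T cell group, with both counting intervals on opposite sides of 1. These differences were not tested, since each condition had 1 library. Ccl5 had a ratio of 0.572 in the ST2- effector cells and 1.95 (1.68 to 2.26) in Foxp3+ cells. Gpr183 had 0.595 in the effector cells, 1.52 (1.03 to 2.23) in Foxp3+ cells and 1.65 (1.21 to 2.25) in ST2+ Foxp3- cells. Dusp2 had 0.576 in the effector cells and 2.21 (1.66 to 2.95) in ST2+ Foxp3- cells. Cd7 had 0.394 in the effector cells and 2.05 (1.5 to 2.84) in CD62L-low CD8 T cells. Among barcodes below the limits on UMIs, genes or mitochondrial share, which no comparison used, 4 in NW and 7 in ABX met the rest of the rule for ST2- effector cells.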

How the results depend on the processing

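The share of ST2- effector cells among all cells and among CD4+ TCR-beta+ T cells stayed within counting error under 10 alternatives each and moved without C1q-positive cells, to ratios of 1.21 and 1.04. Against CD62L-high cells 80 genes were called; the count was 223 with no filter beyond 1 UMI (110 higher, 113 lower), 18 without the library term (no replicate block), 290 with only the 2 groups compared, 30 without C1q-positive cells, 123 with limits of under 5 and at least 20 CD62L UMIs, and 153 with CD62L under 3% of antibody UMIs. Against Foxp3+ cells (418) it was 257 without the library term, 664 with only the 2 groups, 148 without C1q-positive cells and 188 with DESeq2. Against CD8 T cells (227) it was 417 with no filter, 105 without the library term, 3 without C1q-positive cells and 90 with DESeq2. The causes were not tested, though the fits without C1q-positive cells had 3893 genes and fewer cells. Genes past 1.5-fold between ABX and NW (143) were 390 with at least 50 UMIs, 40 with at least 200 and 218 with no filter on the level of all cells. Directions in 1 library alone ranged from 79 to 80 of 80, 416 to 418 of 418 and 226 to 227 of 227 called genes, which is no separate check, since the calls used both libraries. Without the library term 19, 2 and 11 of the named calls were lost against CD62L-high, Foxp3+ and CD8 T cells. Ms4a1 against CD62L-high cells turned to 0.073 on the log2 scale with CD62L under 3%. Iglc3 turned to 0.690 without Jchain-high cells, and Stmn1 and Top2a to 0.261 and 0.943 without cycling cells. Genes with 0 NW UMIs gave no ratio under any alternative. No paired analysis of NW and ABX was possible because each condition had 1 library. Depth limits genes under about 100 UMIs, and the C1q-negative cells limit each contrast.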
